A study of Mus musculus with 6 samples.

Results

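Toll-like receptor genes were examined by RNA-seq in donor-derived HSPCs, the stem and progenitor cells of the blood, which had been recovered from recipient mice after bone marrow transplantation (BMT). The set was chosen by name and holds 9 receptor genes (Tlr1, Tlr2, Tlr3, Tlr4, Tlr6, Tlr7, Tlr8, Tlr9 and Tlr13) and Myd88, which makes 10 of the 24965 genes measured. All 10 were found in the table of FPKM, a count of fragments scaled by the exon length of the gene and by the total of the library. Of these, 8 had an FPKM above 1 in at least 1 library and entered the test, whereas Tlr3 and Tlr9 stayed below that level in every library.

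The comparison asked which genes differ between homed Hemgn-/- and WT donor cells. WT donors and Hemgn-/- donors, in which zinc finger nucleases had disrupted Hemgn in the whole animal, were C57BL/6 mice carrying CD45.2. Whole bone marrow of either genotype was given to CD45.1+ recipients that had been irradiated with 9 Gy, and donor cells were sorted 6 h later, with 3 libraries for WT and 3 for Hemgn-/-. The sample labels describe the sorted cells as CD45.2+Lin-Sca-1+, while the design text and the methods add c-Kit. The 2 sources also differ on the injection route (retro-orbital or tail vein) and on the library kit (TruSeq or Smart-Seq2). Both groups therefore share the donor strain, the irradiated hosts and the time, and differ by the germline Hemgn genotype. Per the methods, the mice of all experiments were 8 to 10 weeks old and of both sexes, the WT littermates were matched to them, and the replicates were biological. The sex behind each library, and whether a library came from 1 recipient or from several, is not given in the sources used here.

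Toll-like receptors are innate immune sensors that recognise conserved microbial molecules and nucleic acids through leucine-rich repeats and signal through an intracellular TIR domain. Tlr1, Tlr2, Tlr4 and Tlr6 act mainly at the cell surface on lipoproteins and lipopolysaccharide, and Tlr3, Tlr7, Tlr8, Tlr9 and Tlr13 act in endosomes on RNA or DNA. All of these except Tlr3 can signal through the adaptor Myd88 to IRAK kinases, NF-kB and interferon regulatory factors. Stem and progenitor cells can carry several of these receptors, and they are abundant on neutrophils, monocytes, dendritic cells and B cells.

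The disrupted gene was lower in the libraries labelled Hemgn-/-. Hemgn was at 5.64, 2.96 and 4.68 FPKM in WT and at 0.755, 0.913 and 1.60 FPKM in Hemgn-/- libraries, with a log2 fold change of -1.37 ± 0.23 (SE) and an adjusted p of 0.0114 (limma). The total by which each library's FPKM had been divided, recovered from the steps between low values, was 23668015 to 28897360 fragments. Transcripts of other blood cells were abundant under the HSPC label. Kit, which the c-Kit gate selects on, was at 5.50 to 7.24 FPKM and Ly6a, which encodes Sca-1, at 8.27 to 17.3 FPKM over the 6 libraries. In the same libraries the neutrophil granule gene Ngp was at 26488 to 46692 FPKM and the B cell receptor gene Cd79a at 408.5 to 552 FPKM. The cells are therefore called sorted donor cells below. In bulk RNA, fewer cells of a type and less RNA per cell cannot be told apart.

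A pair of members shares sequence that bears on how reads can be assigned to them. Tlr1 (chr5:64924679-64933563) and Tlr6 (chr5:64952031-64960097) are neighbours on the minus strand of GRCm38, and each has its coding sequence in a single exon. Their transcripts in GENCODE M21 hold an identical run of 229 bases, which is inside the coding sequence of both (chr5:64925537-64925765 in Tlr1 and chr5:64953828-64954056 in Tlr6). It is shown because a read that lies within it cannot be given to either gene by its own sequence.
Tlr1 and Tlr6: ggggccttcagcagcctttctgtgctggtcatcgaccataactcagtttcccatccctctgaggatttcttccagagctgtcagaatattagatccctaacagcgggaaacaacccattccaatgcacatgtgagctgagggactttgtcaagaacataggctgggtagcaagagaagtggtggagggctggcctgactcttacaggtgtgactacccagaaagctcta
Of all 50-base stretches of these genes, 15.4% of those in Tlr1 and 12.3% of those in Tlr6 occur in another gene. Of stretches of 150 bases, the length of a sequenced read, 4.8% in Tlr1 and 3.9% in Tlr6 are shared between the pair. Per the methods, reads were sequenced in pairs, so a mate outside the shared stretches can place such a read. These shares are of single reads, and the share of fragments that cannot be placed was not determined. For 50 bases, the corresponding share was 7.42% for Myd88, all of it with its antisense neighbour Acaa1a, and 5.3% for Tlr3, all of it with Gm45542. Tlr2, Tlr7, Tlr8, Tlr9 and Tlr13 had no such stretch and Tlr4 had 0.22%.

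Promoter sequences are shown for the 4 members that passed the test of genotype below and for Tlr8, which had the smallest difference. RefSeq windows of GRCm38.p6, from 250 bases before to 50 bases after each annotated start, were held for 8 of the 10 members, in 10 windows, since Tlr1 and Tlr6 have a pair of starts each. Tlr4 and Tlr7 had no entry. Capitals mark matches, on either strand, to a GAS element (TTCNNNGAA, the site of activated STAT dimers), an interferon regulatory factor (IRF) motif (GAAANNGAA), a PU.1 motif (GAGGAAG, a myeloid and B cell factor) or the kappaB motif of NF-kB.
Myd88, chr9:119339969-119340268, minus strand: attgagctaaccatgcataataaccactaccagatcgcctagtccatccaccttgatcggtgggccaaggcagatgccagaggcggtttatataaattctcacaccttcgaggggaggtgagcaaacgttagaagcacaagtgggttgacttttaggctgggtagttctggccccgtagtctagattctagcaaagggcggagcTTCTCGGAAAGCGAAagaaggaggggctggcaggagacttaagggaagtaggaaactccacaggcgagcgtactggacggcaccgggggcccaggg
Tlr2, chr3:83841559-83841858, minus strand: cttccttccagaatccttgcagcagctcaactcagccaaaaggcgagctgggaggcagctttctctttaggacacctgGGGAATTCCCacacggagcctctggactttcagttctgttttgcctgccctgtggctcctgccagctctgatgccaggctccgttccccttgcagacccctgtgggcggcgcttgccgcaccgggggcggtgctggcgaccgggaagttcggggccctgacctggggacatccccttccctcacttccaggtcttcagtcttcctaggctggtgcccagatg
Tlr13, chrX:106143025-106143324, plus strand: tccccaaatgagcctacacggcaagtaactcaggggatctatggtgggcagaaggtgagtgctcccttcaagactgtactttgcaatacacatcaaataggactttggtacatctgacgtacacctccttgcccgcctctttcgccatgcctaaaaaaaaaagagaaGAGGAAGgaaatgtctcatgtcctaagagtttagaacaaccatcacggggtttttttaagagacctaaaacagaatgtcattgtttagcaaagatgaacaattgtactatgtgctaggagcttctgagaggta
Tlr1, chr5:64933509-64933808, minus strand: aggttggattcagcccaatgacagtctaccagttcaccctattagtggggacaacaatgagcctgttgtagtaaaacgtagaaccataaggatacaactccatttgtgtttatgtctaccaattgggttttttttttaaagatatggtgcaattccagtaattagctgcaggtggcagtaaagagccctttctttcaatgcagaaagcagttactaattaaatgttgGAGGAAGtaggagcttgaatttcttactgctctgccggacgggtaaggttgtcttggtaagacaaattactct
Tlr1, chr5:64932650-64932949, minus strand: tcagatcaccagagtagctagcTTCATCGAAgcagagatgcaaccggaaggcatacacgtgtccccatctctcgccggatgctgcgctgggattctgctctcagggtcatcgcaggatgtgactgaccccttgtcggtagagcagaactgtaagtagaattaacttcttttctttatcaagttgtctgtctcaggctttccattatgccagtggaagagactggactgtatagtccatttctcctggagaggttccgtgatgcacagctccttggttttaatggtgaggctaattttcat
Tlr8, chrX:167264280-167264579, minus strand: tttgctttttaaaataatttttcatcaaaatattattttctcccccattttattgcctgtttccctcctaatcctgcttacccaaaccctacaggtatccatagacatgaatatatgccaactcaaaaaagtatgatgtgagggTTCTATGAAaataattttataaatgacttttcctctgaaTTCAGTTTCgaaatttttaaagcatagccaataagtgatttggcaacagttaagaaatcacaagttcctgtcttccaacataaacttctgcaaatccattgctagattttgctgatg
The Myd88 window held a GAS match 46 bases before the start that overlapped an IRF match at 40 bases before it. The Tlr2 window held a palindromic kappaB match 172 bases before the start, and that of Tlr13 held a PU.1 match at 83 bases. The upstream Tlr1 start had a PU.1 match 23 bases before it, and the downstream start had a GAS match 228 bases before it. Tlr8 held a GAS match at 106 and an IRF match at 67 bases before its start. A GAS match was present in 4 of the 10 windows, an IRF match in 3, a PU.1 match in 3 and a kappaB match in 2. Over all 32851 RefSeq windows of this length, the shares were 8.3%, 8.56%, 13.63% and 5.8% in the same order. The match is a description of these letters, and genes with and without a difference in expression held one.

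**Figure D1:**
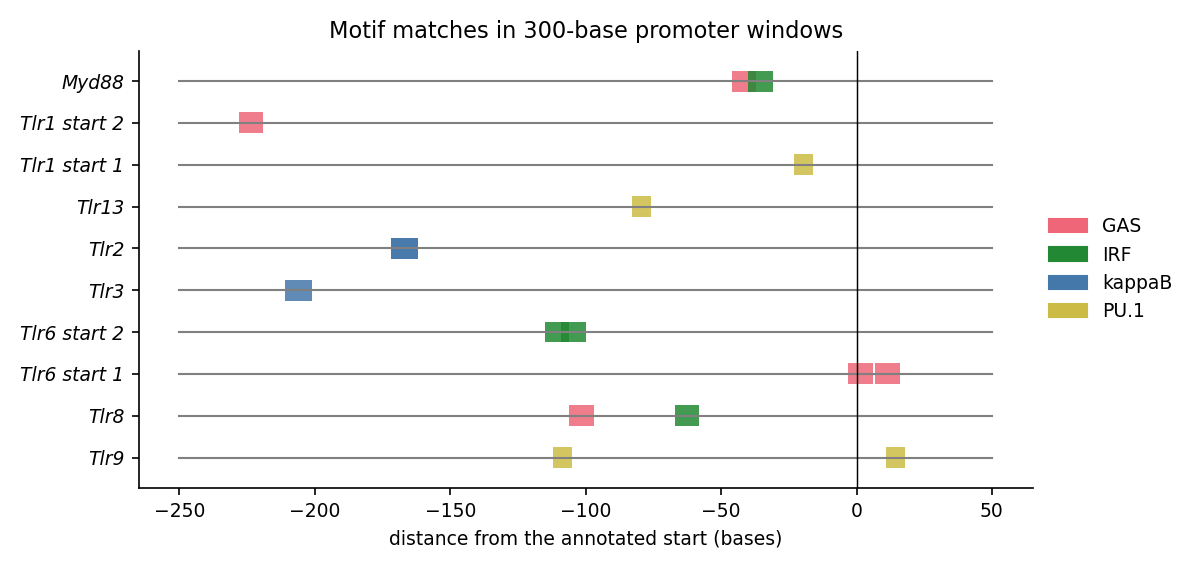
Each line is a 300-base RefSeq promoter window of 1 annotated start, drawn from 250 bases before to 50 bases after the start (x axis, bases), and coloured boxes are motif matches to scale on either strand. Myd88 and the second start of Tlr6 each show overlapping boxes, and Tlr4 and Tlr7 are not drawn.

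Of the 8 members tested, 4 were higher in Hemgn-/- than in WT cells at an adjusted p under 0.05 (Tlr1, Tlr2, Tlr13 and Myd88), and none was lower. Over all 13739 genes tested, 600 were higher (4.37%) and 287 were lower (2.09%) by the same rule. In 7 of the 8 members every Hemgn-/- library was above every WT library, against 19.2% of all genes tested, and no member had its groups apart in the other direction, which 8.18% of all genes did. The median log2 fold change of the 8 members was 0.45, and that of all genes was 0.09, with 63.0% of all genes above 0. At the thresholds of an unadjusted p under 0.05 and 1.5-fold, with the fold taken on the log2(FPKM + 1) scale, Tlr1 was the only member counted, and 4.1% of all genes were higher by that rule. With the fold taken between the FPKM means, an alternative added after seeing the data, Tlr6 (1.52-fold) and Tlr7 (1.55-fold) were counted as well, which made 3 members, and 6.03% of all genes were higher. The members that passed the filter are not all members, since Tlr3 and Tlr9 had no value in these counts.

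These counts moved with the scaling and with single libraries. Higher genes made up 67.6% of all calls as deposited, 46.9% after median-ratio scaling, 51.5% after quantile normalization and 81.5% after rescaling every library to the same FPKM total, and the members called were then 2, 3 and 7. No member was called without Hemgn-/- replicate 3 or with a variance model that has no trend, although 7 of the 8 kept an unadjusted p under 0.05 in both.

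**Figure D2:**
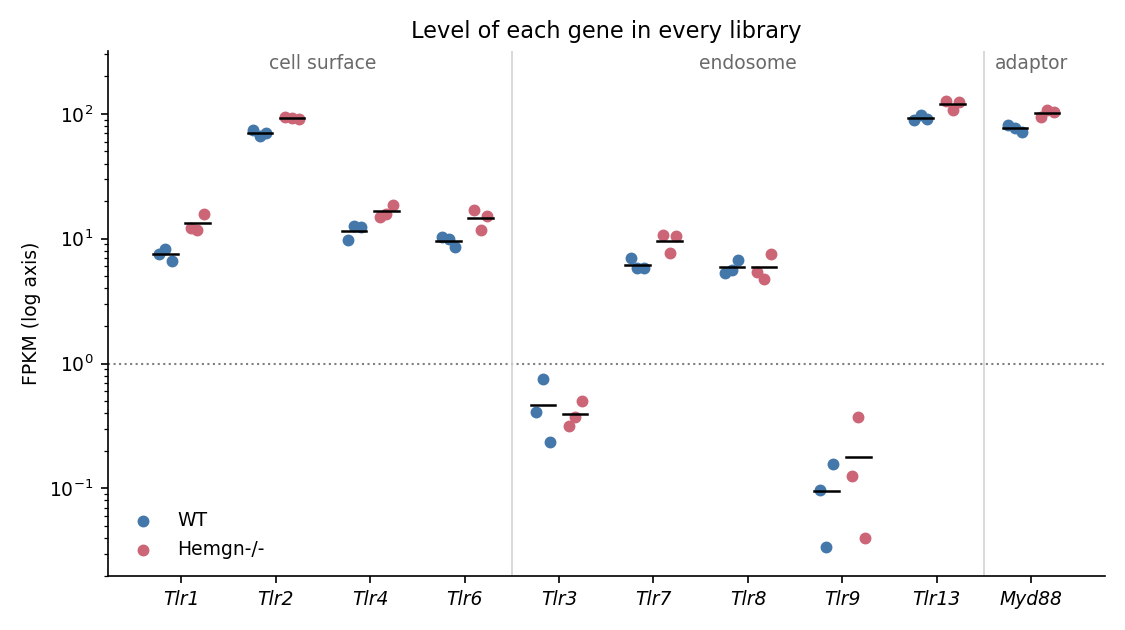
FPKM of each receptor and of Myd88 in every library (y axis, log scale), with WT in blue, Hemgn-/- in red, bars at the group means and a dotted line at the filter of 1 FPKM. Tlr2, Tlr13 and Myd88 lie well above the other genes, Tlr3 and Tlr9 lie below the dotted line, and the groups do not overlap in 7 genes.

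All 4 cell-surface receptors had higher levels in every Hemgn-/- library than in any WT library. Tlr1, which pairs with Tlr2 to bind triacylated lipopeptides, was at 7.54, 8.28 and 6.66 FPKM in WT and at 12.2, 11.8 and 15.8 FPKM in Hemgn-/- libraries. The mean rose from 7.49 ± 0.81 (SD, n = 3) to 13.2 ± 2.22 FPKM, with a log2 fold change of 0.74 (95% interval 0.43 to 1.05) and an adjusted p of 0.0156 in limma. This was the widest difference among the 8 members, and these levels rest on 597 to 1526 recovered fragments in a library. Tlr2, the receptor for bacterial lipoproteins that works as a heterodimer with Tlr1 or Tlr6, was at 74.0, 66.9 and 69.6 FPKM in WT and at 93.7, 93.1 and 90.9 FPKM in Hemgn-/- libraries. Its replicates lay close together in both groups, with means of 70.2 ± 3.62 and 92.6 ± 1.48 FPKM. The log2 fold change was 0.40 (0.24 to 0.55) with an adjusted p of 0.012.

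Tlr6 and Tlr4 did not pass the adjusted threshold. Tlr6, the partner of Tlr2 for diacylated lipopeptides, was at 10.3, 9.96 and 8.56 FPKM in WT and at 16.9, 11.7 and 15.2 FPKM in Hemgn-/- libraries. The second Hemgn-/- library was only slightly above the highest WT library, and the log2 fold change was 0.55 (0.22 to 0.87) with an adjusted p of 0.0585. Tlr4, the receptor for lipopolysaccharide, was at 9.80, 12.6 and 12.3 FPKM in WT and at 14.9, 15.9 and 18.7 FPKM in Hemgn-/- libraries. Its log2 fold change was 0.48 (0.19 to 0.77) with an adjusted p of 0.0629. Leaving out the second Hemgn-/- library brought Tlr6 to an adjusted p of 0.0284.

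Because Tlr1 and Tlr6 share the run printed above, they were also fitted as 1 gene, an alternative chosen after seeing the data. Their summed fragments gave a log2 fold change of 0.63 (0.34 to 0.92) with an adjusted p of 0.0229 in limma, so that the pair together was higher in Hemgn-/- cells. The sum covers shared reads that had been given to 1 of the 2 genes. It cannot correct for shared reads that had been dropped or counted in both, and which of these applied was not tested.

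Of the endosomal receptors tested, Tlr13 passed the threshold and Tlr7 and Tlr8 did not, and differences between these receptors were not tested. Tlr13, which senses bacterial ribosomal RNA and is absent from humans, was the most abundant receptor of the set, at 88.7, 97.9 and 91.5 FPKM in WT and at 127, 108 and 124 FPKM in Hemgn-/- libraries. Its log2 fold change was 0.36 (0.17 to 0.55) with an adjusted p of 0.038. Tlr7, a sensor of single-stranded RNA, was at 6.95, 5.80 and 5.83 FPKM in WT and at 10.7, 7.67 and 10.5 FPKM in Hemgn-/- libraries. All 3 Hemgn-/- libraries were above WT, and the log2 fold change of 0.55 (0.22 to 0.88) had an adjusted p of 0.0595, which missed the threshold. Tlr8, its neighbour on the X chromosome, was at 5.31, 5.58 and 6.76 FPKM in WT and at 5.46, 4.74 and 7.54 FPKM in Hemgn-/- libraries. The groups overlapped, and the log2 fold change was -0.01 with an interval from -0.39 to 0.37 and an adjusted p of 0.982, so that a difference of the size seen for Tlr13 lies inside its interval.

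Tlr13 lost its call in 10 of 16 other settings. In 1 of these the fold fell short, and in the others the adjusted p was 0.0831 to 0.151. Tlr7, Tlr8 and Tlr13 are X-linked, and Xist, the RNA of the inactive X chromosome, was at 5.08 to 6.54 FPKM in WT and at 6.84 to 8.08 FPKM in Hemgn-/- libraries (adjusted p = 0.2). The part of the donors' sex in these values was not tested, and the 4 Y-linked genes of the marker list were not analysed here.

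Transcripts of Tlr3 and Tlr9 were scarce in both groups. Tlr3, the receptor for double-stranded RNA, was at 0.406, 0.750 and 0.236 FPKM in WT and at 0.315, 0.374 and 0.498 FPKM in Hemgn-/- libraries, which amounts to 34 to 100 recovered fragments. The groups overlapped, and without the filter its log2 fold change was -0.06 (-0.43 to 0.32) with an adjusted p of 0.891. Tlr9, the receptor for unmethylated CpG DNA, was at 0.0972, 0.0337 and 0.156 FPKM in WT and at 0.126, 0.373 and 0.0398 FPKM in Hemgn-/- libraries. These are 3 to 34 fragments, the highest of them in the second Hemgn-/- library, and the log2 fold change without the filter was 0.10 (-0.17 to 0.37) with an adjusted p of 0.716. Both intervals include 0. Tlr9 is characteristic of B cells and plasmacytoid dendritic cells, and the B cell gene Cd79a was far above it in the same libraries.

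Myd88, the adaptor that the receptors other than Tlr3 have in common, was at 81.2, 76.9 and 72.2 FPKM in WT and at 94.9, 108 and 104 FPKM in Hemgn-/- libraries. The mean rose from 76.7 ± 4.52 to 102 ± 6.76 FPKM (SD, n = 3), with a log2 fold change of 0.41 (0.23 to 0.59) and an adjusted p of 0.0191 in limma. Of the exonic bases of Myd88 (chr9:119335934-119341411, minus strand), 290 (11.3%) overlap exons of Acaa1a on the opposite strand. No source used here states that reads were counted by strand, so fragments in that overlap cannot be told apart.

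**Figure D3:**
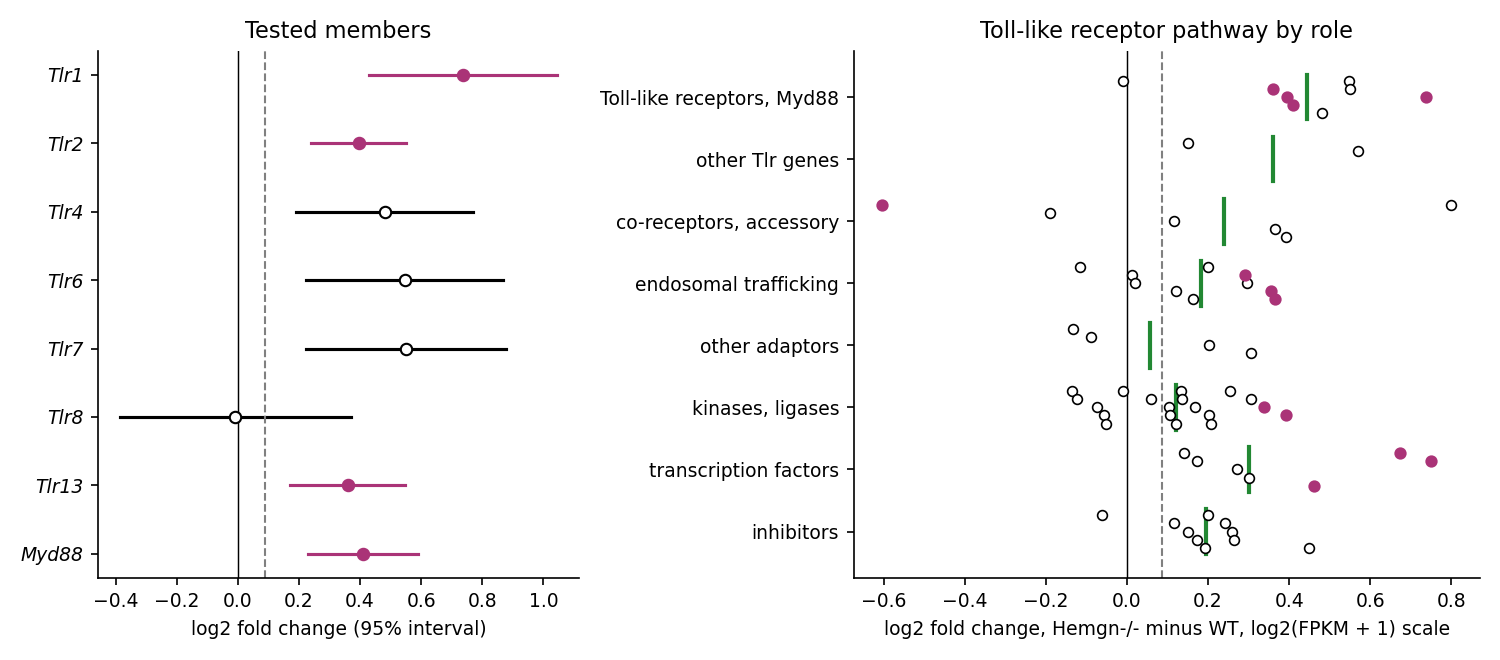
Left, log2 fold change of Hemgn-/- minus WT on the log2(FPKM + 1) scale for the 8 members tested, with the 95% interval as a line. Right, the same value for each gene of the receptor pathway by role, with green bars at list medians. Filled purple points have an adjusted p under 0.05, open points do not, and the dashed line is the median of all genes (0.09). The interval of Tlr8 spans 0 and those of the other 7 members lie above it.

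The mean levels ranked in the same order in both groups, while the overlaps between neighbours differed. In WT libraries the order of FPKM, which is scaled by exon length, was Tlr13, Myd88, Tlr2, Tlr4, Tlr6, Tlr1, Tlr7, Tlr8, Tlr3 and Tlr9. Neighbours whose ranges over the 3 libraries overlapped were Myd88 and Tlr2, Tlr4 and Tlr6, Tlr1 and Tlr7, and Tlr7 and Tlr8. In Hemgn-/- libraries the order of the means was the same, and Tlr13 overlapped Myd88, Tlr4 overlapped Tlr6, Tlr6 overlapped Tlr1 and Tlr3 overlapped Tlr9. The 9 receptors together summed to 203.1, 207.7 and 201.6 FPKM in WT and to 280.9, 253.3 and 283.1 FPKM in Hemgn-/- libraries. Tlr2 and Tlr13 supplied most of that sum, with 79.3% to 80.1% in WT and 75.9% to 79.3% in Hemgn-/- libraries.

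Ratios within a library do not change when all its values are scaled by a single factor, which quantile normalization does not do. The ratios were chosen for display after the levels had been seen. The ratio of Tlr1 to Tlr2 was 0.102, 0.124 and 0.0958 in WT and 0.13, 0.126 and 0.174 in Hemgn-/- libraries. That of Tlr7 to Tlr8 was 1.31, 1.04 and 0.863 in WT and 1.95, 1.62 and 1.39 in Hemgn-/- libraries. Both ratios were higher in each Hemgn-/- library than in any WT library, although the first of them was nearly the same in the second library of either group. The ratios of Tlr6 to Tlr2, Tlr13 to Tlr2, Tlr2 to Myd88, Tlr13 to Myd88 and Tlr1 to Tlr6 overlapped between the groups, and none of these differences was tested.

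**Figure D4:**
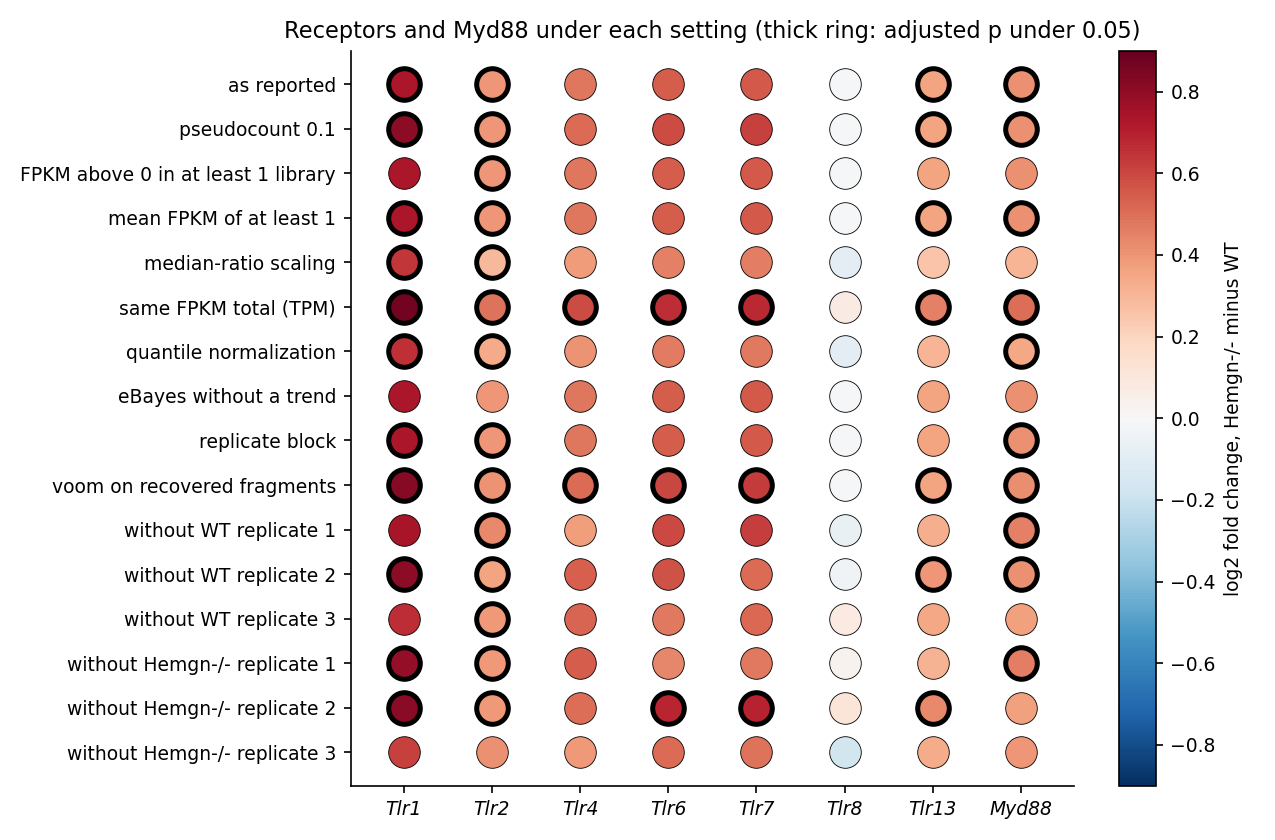
Log2 fold change of each tested receptor and of Myd88 (columns; colour scale, Hemgn-/- minus WT) under each processing setting (y axis), with a thick ring where the adjusted p was under 0.05. The colour stays red for 7 genes in all settings shown, while rings come and go and are missing in the settings without a trend and without Hemgn-/- replicate 3. Tlr8 has no ring and its colour changes sign.

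Of the remaining Toll-like receptor genes of the mouse, Tlr11 and Tlr12 were at low levels, and Tlr5 was near the level of Tlr8. Tlr5, the flagellin receptor, was at 4.27, 5.56 and 4.01 FPKM in WT and at 5.76, 4.82 and 5.04 FPKM in Hemgn-/- libraries, and the groups overlapped (adjusted p = 0.58). Tlr12 was at 0.625, 0.553 and 0.647 FPKM in WT and at 1.53, 1.05 and 1.63 FPKM in Hemgn-/- libraries. Its groups did not overlap, but its log2 fold change of 0.57 had an adjusted p of 0.138. Tlr11 was listed at 0 in 5 libraries and at 0.145 FPKM in the first Hemgn-/- library. Tlr11 and Tlr12 cooperate in the recognition of protozoan profilin.

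Among 57 genes of the receptor pathway outside the set, listed by role, 56 were tested. Of these, 8 were higher and 1 was lower in Hemgn-/- cells, 47 were not called, and the median log2 fold change was 0.17, beside 0.09 over all genes, of which 4.37% were higher and 2.09% lower. After median-ratio scaling 2 pathway genes were higher and 1 was lower, after quantile normalization 3 and 1, and a single gene was called without Hemgn-/- replicate 3. After rescaling to the same FPKM total 12 were higher and 1 was lower. Among 6 co-receptors and accessory proteins none was called higher and Lbp was lower, while 4 had a log2 fold change above 0. Lbp, which encodes the lipopolysaccharide-binding protein, was at 10.5, 12.4 and 11.5 FPKM in WT and at 6.25, 8.22 and 7.24 FPKM in Hemgn-/- libraries (log2 fold change -0.60, adjusted p = 0.0232). The groups did not overlap, and this was opposite in sign to the receptors at the cell surface. Cd180 (log2 fold change 0.80, adjusted p = 0.0768 in limma) and Ly96 (0.39, adjusted p = 0.0931) were not called. Both had every Hemgn-/- library above every WT library, as 19.2% of all genes tested did.

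Of 10 genes for trafficking and processing of endosomal receptors, 3 were higher. Unc93b1, the chaperone that carries nucleic acid-sensing receptors from the endoplasmic reticulum to endosomes, had means of 202.7 FPKM in WT and 248.3 FPKM in Hemgn-/- cells (log2 fold change 0.29, adjusted p = 0.0333). Cnpy3, a folding factor for several Toll-like receptors, rose from 32.5 to 41.8 FPKM (0.35, adjusted p = 0.0219). Ctss, a lysosomal protease, rose from 79.5 to 102.5 FPKM (0.36, adjusted p = 0.0205). All 3 genes had every Hemgn-/- library above every WT library, as 19.2% of all genes tested did. The other 7, among them the receptor chaperone Hsp90b1 at 97.7 and 99.2 FPKM, were not called. Ctsb was 1 of these and had its groups apart in the other direction, which 8.18% of all genes did. Its means were 85.5 FPKM in WT and 78.9 FPKM in Hemgn-/- cells (adjusted p = 0.349 in limma).

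None of the 4 other adaptor genes tested was called, and Sarm1 was below the filter. Pik3ap1 had means of 91.1 and 104.7 FPKM (adjusted p = 0.229) and Ticam2 of 1.36 and 1.80 FPKM (adjusted p = 0.544), and these had the lowest p of the list. Of 19 kinases and ubiquitin ligases, 2 were higher. Btk, a kinase of B cells and myeloid cells that acts downstream of several receptors, was at 39.6, 39.7 and 39.8 FPKM in WT and at 50.5, 50.7 and 50.2 FPKM in Hemgn-/- libraries (log2 fold change 0.34, adjusted p = 0.0219). Ikbkb, the catalytic IkB kinase subunit, rose from 7.90 to 10.7 FPKM (0.39, adjusted p = 0.0486). The spread of Btk within a group was under 1 FPKM.

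Among 7 transcription factors at the end of the pathway, 3 were higher and none was lower, with a list median of 0.30. Irf8, an interferon regulatory factor of monocytes, dendritic cells and B cells, was at 39.7, 39.4 and 38.5 FPKM in WT and at 64.6, 68.1 and 67.4 FPKM in Hemgn-/- libraries (log2 fold change 0.75, adjusted p = 0.000657). Irf5, which Myd88 can activate, rose from 18.0 to 29.4 FPKM (0.67, adjusted p = 0.0148), and Irf3, which acts downstream of Tlr3 and Tlr4, rose from 15.0 to 21.1 FPKM (0.46, adjusted p = 0.021). Irf8 and Irf5 differed by about as much as Tlr1 on the log2 scale. The NF-kB genes Nfkb1, Rela and Rel were not called. None of the 10 inhibitors was called either, and those of lowest p were Socs1 with means of 39.4 and 46.7 FPKM (adjusted p = 0.149) and Tnfaip3 with 32.3 and 37.2 FPKM (adjusted p = 0.18).

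Marker lists of other blood cells were read beside these values, and 4.37% of all genes were higher and 2.09% lower by the same rule. Of 9 B cell markers 5 were higher and none was lower, and their sum was 1243 to 1303 FPKM in WT and 1547 to 1709 FPKM in Hemgn-/- libraries. Of 10 plasmacytoid dendritic cell markers 4 were higher (Siglech, Spib, Klk1 and Pacsin1) and none was lower, with sums of 310.4 to 313.6 and 389.9 to 460.7 FPKM. Most of the difference between these sums came from Spib alone, with means of 145.3 FPKM in WT and 231.7 FPKM in Hemgn-/- cells. Siglech had means of 4.30 and 10.8 FPKM. Neither list had a gene at 0 in any library.

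The neutrophil list split. Of 13 genes 5 were lower, all of them granule genes (Ngp, Ltf, Camp, Elane and Mpo), and its sum was 63720 to 68140 FPKM in WT and 41370 to 42820 FPKM in Hemgn-/- libraries. The other 2 genes that passed were higher, and both encode surface receptors. Cxcr2 rose from 277.5 to 415 FPKM (log2 fold change 0.58, adjusted p = 0.000663) and Csf3r from 181.5 to 234.9 FPKM (0.37, adjusted p = 0.0152). The remaining 6 genes were not called. Means in WT and Hemgn-/- cells were 2696 and 2705 FPKM for Mmp8, 998.5 and 1054 FPKM for Mmp9 and 1127 and 1211 FPKM for Retnlg. They were 442.4 and 307.4 FPKM for Lcn2, 81.6 and 62.7 FPKM for Prtn3 and 55.7 and 48.4 FPKM for Ctsg.

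Of 12 monocyte and macrophage markers 3 were higher (Csf1r, Adgre1 and Ccr2) and C1qb was lower, and the sums overlapped, with 449.1 to 512.1 FPKM in WT and 406.9 to 490.8 FPKM in Hemgn-/- libraries. Most of each sum was Ly6c2, at 269.4 to 326.9 FPKM in WT and 216.5 to 296.4 FPKM in Hemgn-/- libraries. The overlap of the sums is therefore mainly that of this gene. Of 11 genes of the HSPC list that were tested 2 were higher (Cd34 and Cd48), with list sums of 44.75 to 49.04 and 54.56 to 64.03 FPKM. Kit was at 6.58 and 5.68 FPKM on average (adjusted p = 0.398 in limma). How much of the Cd34 and Cd48 signal came from HSPCs was not tested. Among 7 conventional dendritic cell markers tested none was called, and the defining genes Zbtb46 and Xcr1 were at or below 0.39 FPKM in every library. Of 8 T and NK cell markers only Ncr1 was higher. The part of any of these cell types in the levels of the receptors was not tested.

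**Figure D5:**
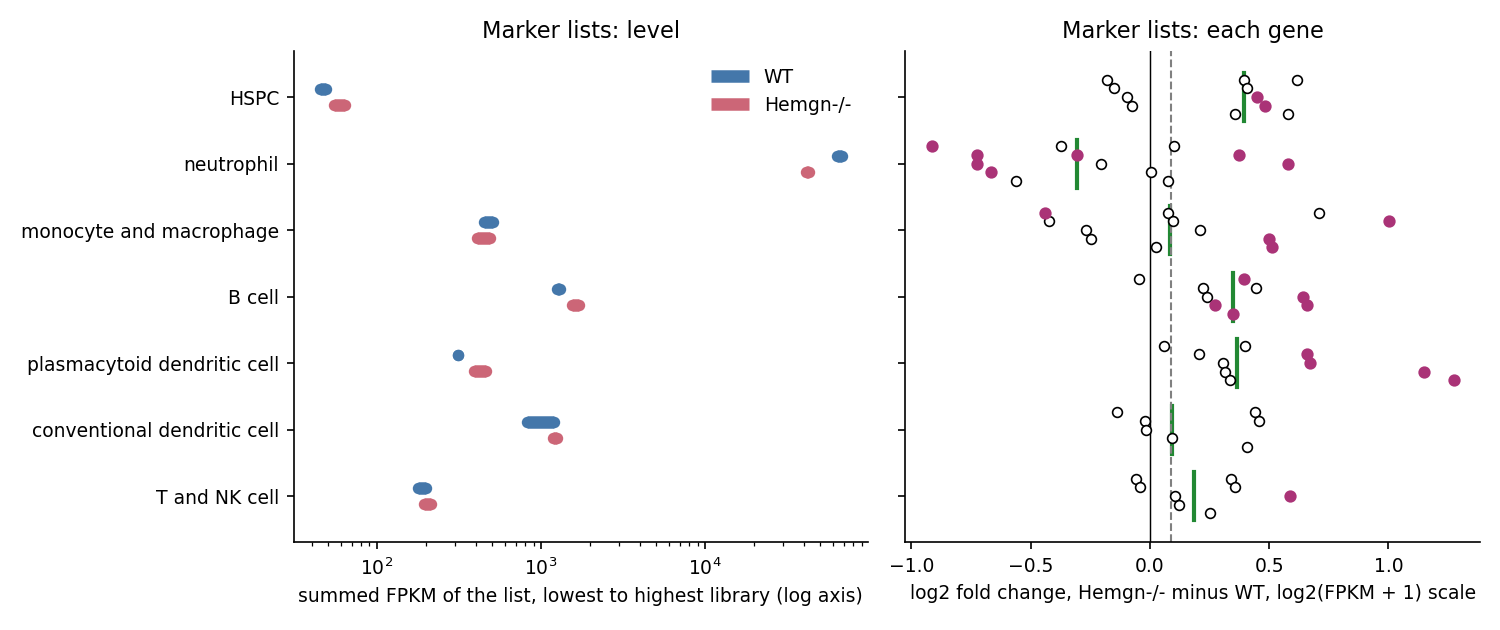
Left, range of the summed FPKM of each marker list over the 3 libraries of a group (x axis, log scale; WT blue, Hemgn-/- red). Right, log2 fold change of each tested marker, with filled purple points for an adjusted p under 0.05, green bars at list medians and a dashed line at the median of all genes. The neutrophil sums lie far to the right of the HSPC sums in both groups, and the B cell and plasmacytoid dendritic cell points lie mostly to the right of 0.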

How the data were processed

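RNA-seq values came from 3 WT and 3 Hemgn-/- libraries, grouped by the genotype in the labels. The authors deposited FPKM per gene and library. The submitters' processing notes name GRCm38, Bowtie2 2.2.3, HISAT2 2.1.0, TopHat2 and HTSeq 0.6.0, and the annotation is not given in the sources used here. Ensembl identifiers of 24921 of 24965 genes matched GENCODE M21. Steps between low FPKM values gave the total used as the FPKM denominator, 23668015 to 28897360 fragments (fragments summed over genes come to 25213529 to 30812337), with which 95.7% of genes of up to 100 fragments came out whole in all 6 libraries (within 0.05 fragments). Tlr13 did not match its annotated length, so no fragments are printed for it and its values were rounded for voom. Whole fragments are not independent molecules after amplification.

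A gene was tested if any library held it above 1 FPKM. The test was limma 3.58.1 under R 4.3.3, two-sided and without covariates, on log2(FPKM + 1), with lmFit followed by eBayes with its mean-variance trend. This scale understates changes of low genes. P-values were adjusted by Benjamini-Hochberg over all 13739 genes tested, and the call was an adjusted p under 0.05. The members, the pathway lists and the marker lists were chosen with earlier results of these data known. Values are printed for all members, for listed pathway genes with an adjusted p under 0.05 and, in lists with none higher or lower, for the 2 of lowest p. A gene of the marker lists is not reported here. Genes named beyond this rule were chosen after their values were seen. The script was tested on simulated data. Same-numbered libraries did not deviate together, with correlations of -0.043, -0.009 and 0.011. Promoter windows were from RefSeq (GRCm38.p6), and motifs were searched on both strands with Python 3.11.15. The alternatives were another pseudocount, 2 other filters, 3 scalings, a variance model lacking the trend, a block for replicate number, the thresholds of the study, voom on recovered fragments, a fold between FPKM means (added after seeing the data) and leaving out each library.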

Additional observations from a re-analysis of the deposited data

How the results depend on the processing

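The number of members called was 4 as reported. It was 1 with all genes above 0 FPKM, 2 after median-ratio scaling, 7 after rescaling to the same FPKM total, 7 with voom on recovered fragments, 0 with eBayes without a trend (7 at an unadjusted p under 0.05) and 1 at the thresholds of the study, with the fold on log2(FPKM + 1) (3 with the fold between FPKM means). Leaving out 1 library gave 0 to 5. The third Hemgn-/- library took the count to 0 when left out, the third WT library to 1 and the first WT library to 2, and the second Hemgn-/- library raised it to 5. Pathway genes called were 9 as reported, and 5 with all genes above 0 FPKM, 3 after median-ratio scaling, 4 after quantile normalization, 1 without a trend, 4 at the thresholds of the study with either fold and 1 to 7 with 1 library left out. They rose to 13 after rescaling to the same FPKM total and to 10 with voom. Over all genes 887 calls became 466 with all genes above 0 FPKM, 390 without a trend and 373 to 688 with 1 library left out. They rose to 1287 after rescaling to the same FPKM total and to 1065 with voom. At the thresholds of the study with the fold between FPKM means they were 1302. Hemgn kept its sign, with a log2 fold change of -1.37 and an adjusted p of 0.0613 with all genes above 0 FPKM, where more genes were tested, and -1.58 to -1.20 with 1 library left out (adjusted p = 0.0503 without WT replicate 3).

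The 7 members with a positive log2 fold change kept its sign under all 16 alternatives, but only the 3 scalings and voom could have reversed it. The filters, the variance model, the block and the thresholds leave the fold change as it is. Groups that do not overlap also keep its sign under another pseudocount or with a library left out. Tlr8 turned positive in 4 of the 16 alternatives, at 0.072 after rescaling to the same FPKM total, 0.08 when the third WT library was left out, and 0.03 and 0.115 when the first or the second Hemgn-/- library was. With 1 library left out it ran from -0.171 to 0.115. The adjusted p was 0.0089 to 0.0582 for Tlr1, 0.00516 to 0.0857 for Tlr2, 0.016 to 0.151 for Tlr13 and 0.00631 to 0.101 for Myd88, and it was under 0.05 in some alternatives for Tlr4 (2 of 16), Tlr6 (3) and Tlr7 (3). With the replicate number as a block, 3 members (Tlr13 had an adjusted p of 0.0831) and 3 pathway genes were called, beside 636 over all genes. The libraries share only a number, and the block is no sign of a weaker effect. The causes of these shifts were not tested.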
